A study of Mus musculus with 24 samples.

Results

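The 34 genes described here belong to the unfolded protein response and the integrated stress response. They were taken by name from a list of members drawn up with earlier results of these data known, the rule itself using no measured value, and all 34 were present among the 13290 genes of the count tables. By role they comprised 8 regulators of the integrated stress response, 5 enzymes of serine, asparagine and one-carbon metabolism, 3 amino acid transporter subunits, 4 sensors of endoplasmic reticulum (ER) stress or their transcription factors, 8 ER chaperones and lectins, and 6 disulfide isomerases, secreted factors and degradation factors of the ER. Below, the regulators, enzymes and transporters (16 genes) are called the integrated stress response arm, and the chaperones, lectins and other ER factors (14 genes) the ER arm.

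The RNA came from BV2, an immortalised line of mouse microglia (the macrophages of the brain), and from the extracellular vesicles (EVs, membrane-bound particles shed by cells) that the line released. Cultures were labelled control or were treated for 72 h with 1 of 3 agents. These were lipopolysaccharide (LPS, a bacterial outer membrane component that activates TLR4) at 100 ng/mL, the cytokine interleukin-10 (IL-10) at 50 ng/mL and the cytokine TGF-β (transforming growth factor-β) at 50 ng/mL. Each of the 4 conditions gave 3 cell libraries and 3 EV libraries, 24 in all. All groups share this 1 line, grown without neurons or astrocytes, and the measurements describe its bulk RNA, in which fewer responding cells and less RNA per cell cannot be told apart.

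In the integrated stress response, 4 kinases (PERK, GCN2, PKR and HRI) phosphorylate the initiation factor eIF2 when cells meet ER stress, amino acid shortage, double-stranded RNA or heme shortage. General translation falls while ATF4 is translated more, and ATF4 then induces genes of amino acid uptake and synthesis together with regulators such as CHOP. In the unfolded protein response, PERK, IRE1 and ATF6 sit in the ER membrane and sense misfolded protein, and spliced XBP1 and cleaved ATF6 induce chaperones that fold secreted and membrane proteins. Much of this control is exerted on translation, splicing, cleavage and phosphorylation, which counts per gene do not measure. In macrophages and microglia the same genes respond to inflammatory signals and to the load of secreted protein.

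The total per library ranged from 26.14 to 42.13 M counts in cells and from 3.02 to 17.98 M in EVs. Of 11 listed markers of microglia and macrophages, 10 or 11 lay above 3 counts in each of the control cell libraries, with a summed level of 6718 to 6996 CPM (counts scaled to a fixed library total). That sum was 5341 to 5548 CPM after LPS, 6240 to 6322 after IL-10 and 7922 to 8531 after TGF-β. Abundant markers weigh most in it, and gene by gene the picture after IL-10 differed. By the edgeR test described below (adjusted p under 0.05), 5 of the 10 markers tested after IL-10 were higher and 1 lower. Their median log2 fold change was 0.15. After LPS, 4 of 10 were higher and 5 lower (median -0.09), and after TGF-β, 7 of 11 were higher and 0 lower (median 0.65). Of all genes tested, 12.3% were higher and 10.9% lower after IL-10, 28.6% and 27.5% after LPS, and 14.5% and 15.4% after TGF-β. P2ry12 is not among the listed genes, and Cx3cr1 averaged 0.081, 0.012 and 0 CPM in control, LPS and IL-10 cells and 8.13 CPM in TGF-β cells. The 8 listed markers of neurons, glia, endothelium and lymphocytes summed to 7.48 to 14.2 CPM in cells. The EV libraries from LPS-treated cultures stood apart: 0.489% to 4.42% of listed genes had no count there, against 19.6% to 50.0% in the other EV libraries. The 116 genes with no count in any cell library averaged 9.97 to 43.0 CPM in the LPS EVs and 0.084 to 1.13 CPM in the other EVs. The part that these marker sums and the LPS EV libraries had in the results was not tested. The labels do not say whether the 3 libraries of each group were grown as separate cultures. The p-values therefore measure only how much these libraries vary, which may be technical.

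Levels of different members were compared only after scaling by exon length (TPM-like values, computed from the counts). In control cells the most abundant members were Phgdh, the first enzyme of serine synthesis, at 1501 ± 40.0 (SD, n = 3), and the ER chaperones Calr (calreticulin) at 1206 ± 10.9 and Hspa5 (BiP) at 852 ± 26.9. Pdia3, a disulfide isomerase that works with calreticulin, was at 684 ± 5.75. Atf4 took rank 8 of 34 at 288. The lowest members were the cystine transporter subunit Slc7a11 at 7.23, the BiP co-chaperone Dnajb9 at 6.61 and Chac1, which degrades glutathione, at 3.09. All 34 members had counts in all 12 cell libraries. The summed level of the 34 genes was 8956 to 9040 CPM of the library total in control cells and 11420 to 11890 after LPS. It was 7239 to 7948 after IL-10 and 9718 to 10430 after TGF-β, so the ranges of the 4 groups did not overlap. The sum weighs the abundant members most. Under scaling by library totals, the median log2 fold change over all genes was itself 0.074 after LPS, -0.161 after IL-10 and 4.93e-05 after TGF-β.

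TGF-β separated the integrated stress response arm from the ER arm in cells. In all, 13 members were higher and 17 lower than in control cells by edgeR's quasi-likelihood test at a Benjamini-Hochberg adjusted p under 0.05, where 14.5% of the 11798 genes tested were higher, 15.4% lower and 29.9% either. Of the 16 genes of the integrated stress response arm, 12 fell and 1 rose, with a median log2 fold change of -1.21. Of the 14 genes of the ER arm, 12 rose and 2 fell, with a median of 0.52. The median over all genes tested was 0.0056. Every log2 fold change below is that of treated over control libraries, and values in single libraries are CPM scaled by the trimmed mean of M-values (TMM). Groups that do not overlap are common in these cells. Of all 13290 genes, 40.8% did not overlap between TGF-β and control cells, 57.0% between LPS and control and 34.2% between IL-10 and control. Of the 34 members, 3, 8 and 13 overlapped in these comparisons.

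Among the regulators, Atf4 stood at 230, 218 and 247 CPM in the control libraries and at 102, 128 and 78.6 CPM after TGF-β. The 2 groups did not overlap, and the fall was 2.26-fold (log2 -1.18, edgeR adjusted p = 0.00214). Ddit3, which encodes the pro-apoptotic factor CHOP, went from 65.7, 55.7 and 71.3 CPM to 11.6, 17.7 and 5.85 CPM, 5.53-fold lower (adjusted p = 0.0143; 0.0524 without control library 1). Trib3, a pseudokinase induced by CHOP and ATF4, was at 115, 105 and 131 CPM in controls and at 31.0, 47.0 and 9.90 CPM after TGF-β. Its groups did not overlap either, yet the libraries of the TGF-β group were so far apart that its log2 fold change of -2.01 gave an adjusted p of 0.0766. The same gene was called by DESeq2 (adjusted p = 0.00529), and by edgeR without TGF-β library 3 (0.00464).

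The stress-induced chromatin protein Nupr1 fell 2.17-fold, the leucine sensor and antioxidant regulator Sesn2 fell 2.47-fold and Chac1 fell 6.06-fold (edgeR adjusted p = 0.00123, 4.96e-05 and 0.0015). Chac1 is the rarest member: its levels were 1.34 to 2.38 CPM in controls and 0.139 to 0.421 CPM after TGF-β. Ddit4, an inhibitor of mTORC1, was at 13.1 to 15.6 CPM in controls and at 11.4 to 14.7 CPM after TGF-β, overlapping ranges (log2 -0.06, 95% interval -0.38 to 0.26). Cebpg, a dimer partner of ATF4, was the 1 member of the arm that rose, by 1.21-fold (adjusted p = 0.0293), and its call was lost in 4 of the 6 fits that left out 1 library.

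Enzyme genes fell with the regulators, except for the most abundant one. Psat1, the second enzyme of serine synthesis, was at 270, 279 and 277 CPM in controls and at 112, 119 and 118 CPM after TGF-β, a 2.37-fold fall (adjusted p = 1.43e-08). Its libraries agreed closely within each group. The mitochondrial one-carbon enzymes Shmt2 and Mthfd2 fell 2.0-fold and 2.43-fold (adjusted p = 1.71e-07 and 0.00496). Asparagine synthetase (Asns) stood at 334, 270 and 326 CPM in controls and at 105, 142 and 69.1 CPM after TGF-β, a 2.95-fold fall (adjusted p = 0.0193) that missed the threshold without control library 1 (0.0687) or control library 3 (0.0634). Phgdh, which acts one step before Psat1 in the same pathway, was at 1259, 1321 and 1242 CPM in controls and at 1430, 1682 and 1313 CPM after TGF-β. These groups overlapped, and its log2 fold change was 0.21 (95% interval 0.03 to 0.39, adjusted p = 0.0788; 0.0037 without TGF-β library 3).

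All 3 transporter subunits fell. Slc7a11, the cystine-glutamate exchanger, went from 30.6, 27.5 and 45.0 CPM in controls to 7.07, 7.66 and 8.71 CPM, 4.39-fold lower (adjusted p = 3.17e-06). The large neutral amino acid transporter Slc7a5 fell 2.19-fold (146, 152 and 150 CPM against 66.7, 85.7 and 52.5; adjusted p = 0.00122). Slc3a2, the heavy chain that both of these transporters share, fell 1.45-fold (adjusted p = 0.000457).

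The ER stress sensors mostly fell. Ern1 (IRE1) was at 33.99, 36.8 and 38.3 CPM in controls and at 16.4, 18.6 and 15.5 CPM after TGF-β, a 2.16-fold fall (adjusted p = 5.96e-06) with no overlap. Atf6 fell 1.49-fold and Xbp1, counted here as a gene whatever its splice form, 1.19-fold (adjusted p = 0.000111 and 0.00674). Eif2ak3 (PERK) stood at 53.6 to 56.1 CPM in controls and 47.4 to 69.2 CPM after TGF-β, so its groups overlapped (log2 0.02, 95% interval -0.25 to 0.30).

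Chaperone genes moved the other way. Hspa5 was at 1270, 1239 and 1185 CPM in controls and at 1625, 1390 and 1748 CPM after TGF-β, 1.29-fold higher (adjusted p = 0.0042), and Hsp90b1 (GRP94) went from 232, 241 and 228 CPM to 400, 367 and 478 CPM, 1.78-fold higher (adjusted p = 1.34e-05). In both genes all 3 TGF-β libraries lay above all controls. The lectin chaperones Calr and Canx, which hold newly made glycoproteins, rose 1.44-fold each (adjusted p = 1.95e-05 and 0.000155). Pdia3 went from 729, 734 and 735 CPM to 1280, 1163 and 1427 CPM, 1.76-fold higher (adjusted p = 2.95e-06). The isomerases Pdia4 and Pdia6 rose 1.44-fold and 1.49-fold, the BiP co-chaperone Dnajc3 1.51-fold and the co-chaperone component Sdf2l1 1.34-fold (adjusted p = 8.42e-05, 2.55e-05, 0.00508 and 0.00132). Manf, a secreted ER factor, rose 1.33-fold (adjusted p = 0.00638). Dnajb9 and Creld2 rose 1.44-fold and 1.25-fold (adjusted p = 0.0471 and 0.025), and Hyou1, a nucleotide exchange factor of BiP, fell 1.19-fold (adjusted p = 0.0321). Each of these last 3 calls was lost when single libraries were left out, with adjusted p up to 0.185, 0.102 and 0.128.

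Herpud1, a membrane component of ER-associated degradation, went against most of the ER arm. It was at 73.3, 77.6 and 77.0 CPM in controls and at 51.7, 53.0 and 43.7 CPM after TGF-β, 1.54-fold lower (adjusted p = 0.000182), with no overlap.

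**Figure D1:**
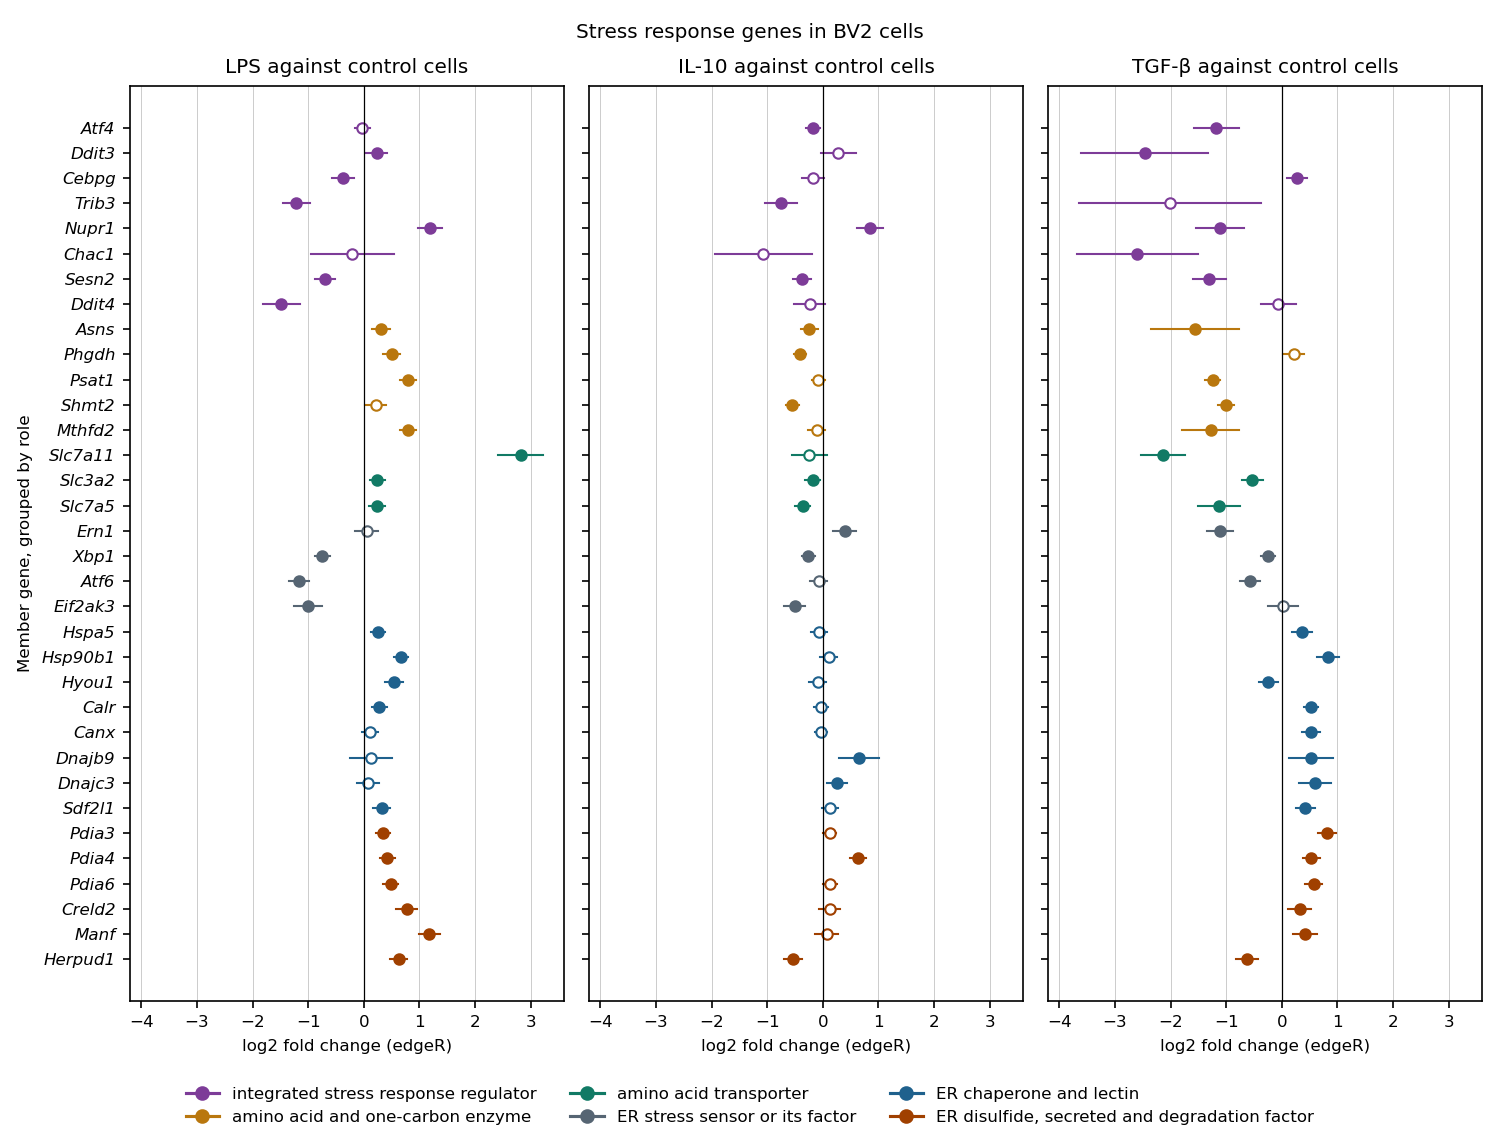
Log2 fold change of each of the 34 members in BV2 cells against control cells (x axis) after LPS, IL-10 and TGF-β, with genes on the y axis coloured by role. Points are edgeR estimates from 3 against 3 libraries, lines their 95% intervals, and filled points passed the adjusted p of 0.05: after TGF-β, filled points to the left make up 12 of the 16 genes of the integrated stress response arm, and filled points to the right 12 of the 14 genes of the ER arm.

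Among the members, the 3 libraries within a group were also ordered, in all 3 treatments. This order was not counted over all genes, so whether it is particular to the members is not known. TGF-β library 3 held the lowest value of its group for 13 of the 16 genes of the integrated stress response arm and for all 4 sensors, and the highest value for 11 of the 14 genes of the ER arm. TGF-β library 2 held the highest value for 14 of the 16 and the lowest for 10 of the 14. LPS library 1 was lowest for 14 of the 16 genes of the integrated stress response arm and for 8 of the 14 of the ER arm. IL-10 library 1 was lowest for 13 of the 16 and highest for 10 of the 14. In controls, library 2 was lowest for 9 of the 16 and highest for 7 of the 14. Each of these libraries other than TGF-β library 2 was the deepest of its group, with 34.63 M counts (TGF-β), 42.13 M (LPS), 36.32 M (IL-10) and 31.9 M (control), and TGF-β library 2, with 26.14 M, was the shallowest. The part of depth in this order was not tested. Leaving out TGF-β library 3 gave Atf4 a log2 fold change of -1.01 and Ddit3 one of -2.14.

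Other genes of the pathways were counted in lists that hold no member and that were, like the members, chosen with earlier results known. Of 28 further ATF4 targets and amino acid response genes tested, 26 fell after TGF-β and none rose, with a median log2 fold change of -0.87 and a range of -2.61 to -0.33. The exceptions, not called, were the transcription factors Jdp2 and Cebpb. The glycine transporter Slc6a9 fell 4.90-fold and Ppp1r15a (GADD34), the stress-induced subunit of the eIF2 phosphatase, 3.24-fold (adjusted p = 2.31e-07 and 3.36e-07). Among 14 genes of eIF2, its kinases, eIF2B and the phosphatase, 3 rose and 3 fell (median -0.05), with the kinase gene Eif2ak4 (GCN2) 1.29-fold higher and Eif2b2 1.26-fold lower (adjusted p = 0.000616 and 0.00797).

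Outside the members, 10 of 44 genes of ER folding, glycosylation and translocation rose after TGF-β and 1 fell, with a median of 0.07. Erp29, an ER secretion chaperone, rose 1.52-fold and Dad1, a subunit of the oligosaccharyltransferase, rose by log2 0.38 (adjusted p = 1.03e-05 and 0.00296). The oxidase gene Ero1l (ERO1α), a target of CHOP, fell 2.21-fold (adjusted p = 4.35e-07). In ER-associated degradation 2 of 21 genes rose and 3 fell. In the list of ATF6 and CREB3 relatives and death genes 5 of 15 rose and 6 fell: Creb3l2, a membrane-bound transcription factor, rose 2.61-fold, whereas the ER membrane protein gene Wfs1 fell 3.62-fold and Bbc3 (PUMA), a pro-apoptotic gene, 2.57-fold (adjusted p = 7.56e-05, 4.22e-08 and 1.16e-05). Of 20 genes for cytosolic and mitochondrial heat shock proteins, 1 rose (Hspa8, by log2 0.38) and 4 fell, among them the mitochondrial protease Lonp1, 1.56-fold.

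**Figure D2:**
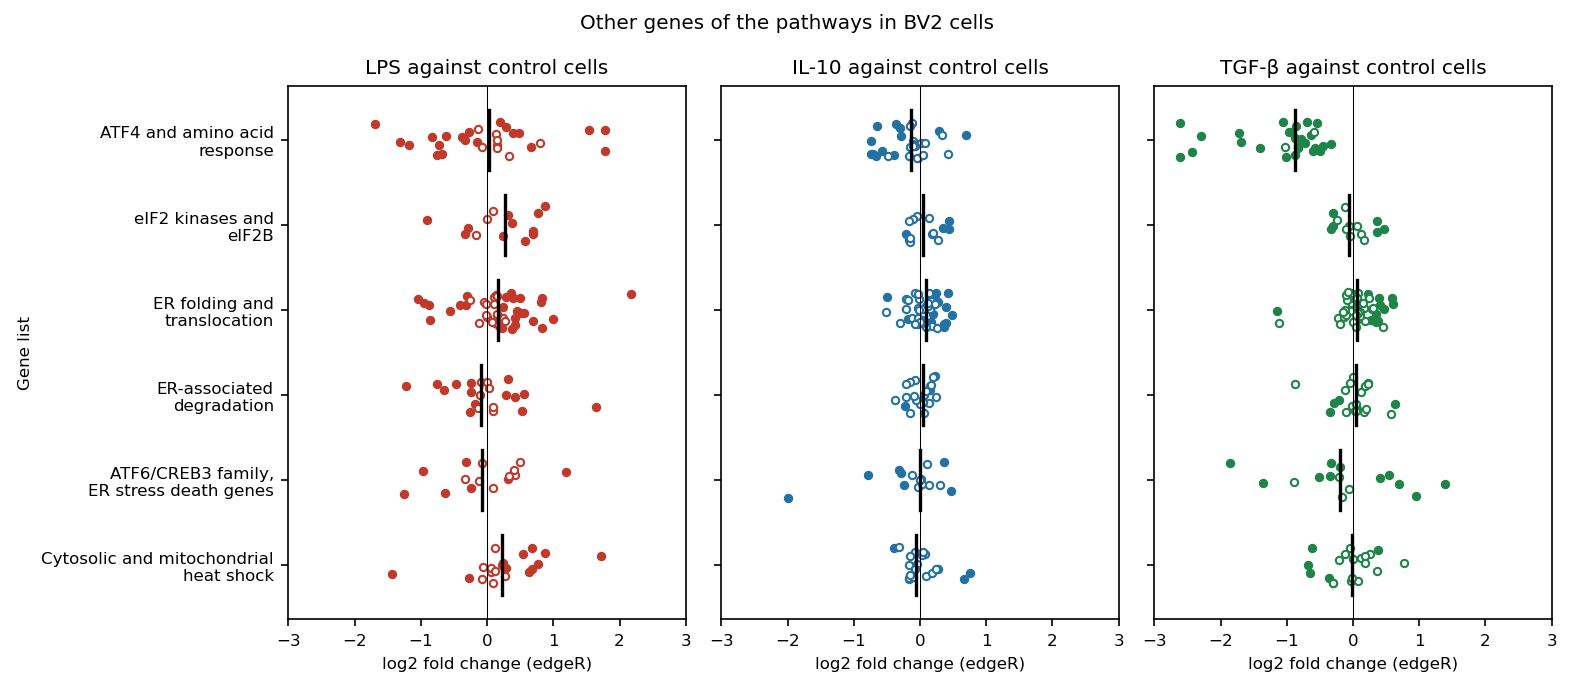
Log2 fold changes against control cells (x axis) of genes in 6 pathway lists that hold no member (y axis), after LPS, IL-10 and TGF-β. Each point is 1 gene, filled where its edgeR adjusted p was under 0.05, and black bars are list medians: after TGF-β all 28 further ATF4 and amino acid response genes lie below 0, with a median of -0.87.

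Promoters were read from RefSeq (GRCm38.p6, 250 bases before to 50 bases after the start) for 30 of the 34 members, and searched on both strands for motifs known from these pathways. The members were themselves listed as genes of these pathways. A motif share among them above that of all promoters therefore does not measure enrichment, which was not tested. The ER stress element, which reads CCAAT, then 9 bases of any kind, then CCACG, was found in 7 members (Hspa5, Hsp90b1, Calr, Canx, Dnajc3, Pdia6 and Creld2) and in 0.119% of 32851 promoters. All 7 genes are in the ER arm and rose after TGF-β. Of the ER arm as a whole 12 of 14 rose, among them Pdia3, Pdia4, Sdf2l1, Manf and Dnajb9, which are not among the 7. After LPS 5 of the 7 rose, and after IL-10 Dnajc3 alone was called. The matches are shown because these 7 genes rose after TGF-β. Capitals mark the fixed letters of the element, on the sense strand as CCAAT and CCACG or, for a match on the other strand, as CGTGG and ATTGG. Each stretch is written 5′ to 3′ along the gene, with 12 bases on each side.
Hspa5 (chr2:34772013-34772055, plus strand): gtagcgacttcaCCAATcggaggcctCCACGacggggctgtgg
Calr (chr8:84847063-84847105, minus strand): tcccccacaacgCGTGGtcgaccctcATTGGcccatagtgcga
Canx (chr11:50325788-50325830, minus strand): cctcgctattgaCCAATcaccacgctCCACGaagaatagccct
Dnajc3 (chr14:118937815-118937857, plus strand): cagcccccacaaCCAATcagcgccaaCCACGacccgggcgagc
Pdia6 (chr12:17266479-17266521, plus strand): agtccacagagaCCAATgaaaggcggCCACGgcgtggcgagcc
Creld2 (chr15:88819508-88819550, plus strand): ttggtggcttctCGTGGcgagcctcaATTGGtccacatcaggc
Hsp90b1, with 2 matches (chr10:86705521-86705668, minus strand): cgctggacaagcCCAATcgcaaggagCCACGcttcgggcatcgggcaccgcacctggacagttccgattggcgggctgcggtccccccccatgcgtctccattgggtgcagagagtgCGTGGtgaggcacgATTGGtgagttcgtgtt

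The amino acid response element, TGATGNAA, to which ATF4 dimers with C/EBP proteins are known to bind, was found in 6 members (Asns, Chac1, Nupr1, Slc7a11, Trib3 and Herpud1) and in 3.97% of all promoters. It is shorter than the ER stress element and so is met more often. Asns, Chac1, Nupr1, Slc7a11 and Herpud1 fell after TGF-β, and Trib3 was the uncalled gene described above. Of the integrated stress response arm as a whole 12 of 16 fell. Among them were Atf4, Ddit3, Sesn2, Psat1, Shmt2, Mthfd2, Slc3a2 and Slc7a5, which are not among the 6. After LPS Asns, Nupr1, Slc7a11 and Herpud1 rose, Trib3 fell and Chac1 was not called. Capitals again mark the fixed letters, which read TT, any base and CATCA for a match on the other strand. The match of Trib3 lies after the transcription start and is not shown.
Asns (chr6:7693213-7693244, minus strand): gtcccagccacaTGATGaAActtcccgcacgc
Chac1 (chr2:119351037-119351068, plus strand): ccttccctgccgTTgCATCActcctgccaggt
Nupr1 (chr7:126625561-126625592, minus strand): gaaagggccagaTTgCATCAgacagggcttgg
Slc7a11, with 2 matches (chr3:50443641-50443691, minus strand): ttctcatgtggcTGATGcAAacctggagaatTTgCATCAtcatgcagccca

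Herpud1 was the 1 member that held both kinds of motif: TGATGNAA and the second form of the ER stress element (ATTGG, 1 base of any kind, CCACG), which was in 0.0365% of promoters. It is shown because its change differed from that of most of the ER arm, falling after TGF-β and after IL-10 and rising after LPS. The core TGACGTGG was in 0 of the 30 member promoters and in 0.676% of all.
Herpud1 (chr8:94386305-94386399, plus strand): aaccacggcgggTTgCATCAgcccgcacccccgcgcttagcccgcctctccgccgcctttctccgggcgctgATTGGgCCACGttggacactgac

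**Figure D3:**
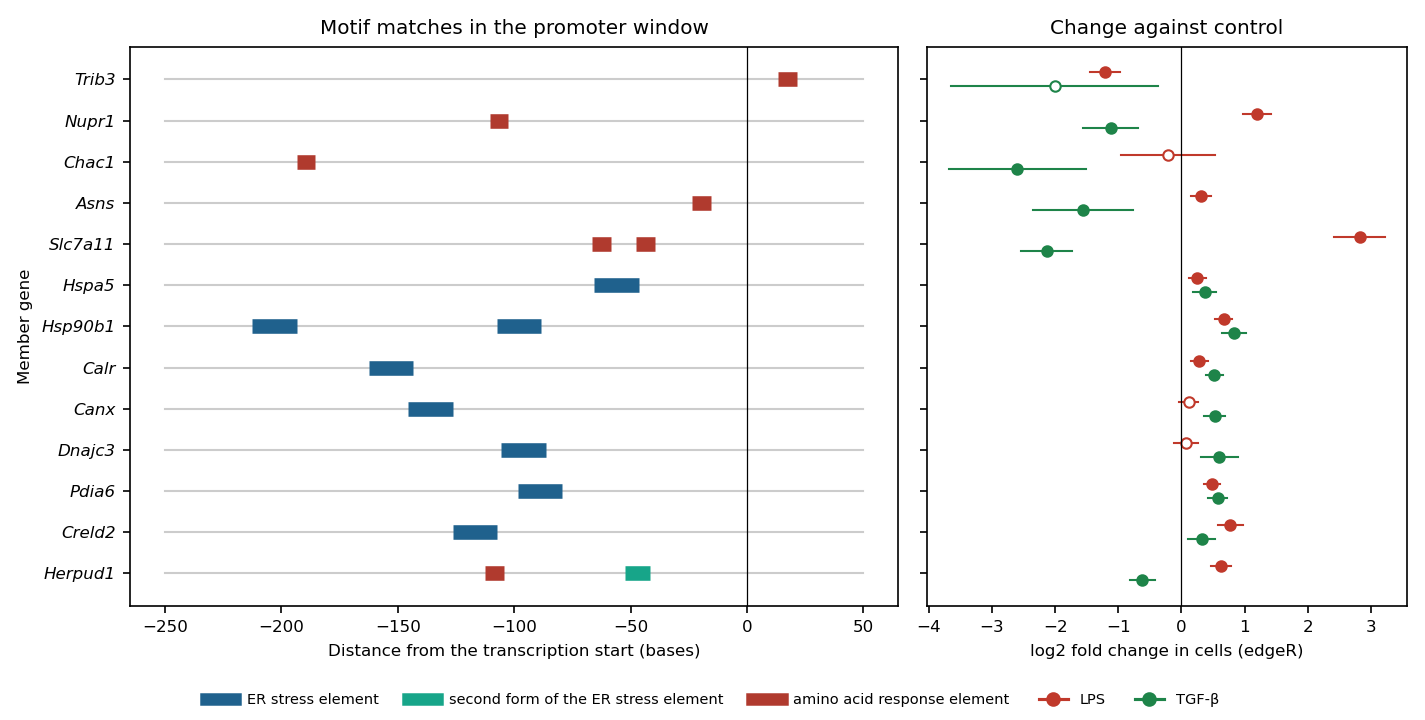
Left, positions of motif matches in the promoter windows of the 13 members with a match (x axis, bases from the transcription start; y axis, genes). Right, log2 fold changes of the same genes in LPS and TGF-β cells against control with 95% intervals, filled where the edgeR adjusted p was under 0.05: the 7 genes with the ER stress element lie above 0 after TGF-β, and those with the amino acid response element below.

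LPS raised most of the ER arm, the transporters and most enzymes, while 3 of the 4 sensors and 4 of the 8 regulators fell. By the same test, 20 members were higher and 7 lower, where 28.6% of 11951 genes were higher and 27.5% lower. In either direction 27 of 34 members were called, and 56.1% of all genes tested. In the fit that took all 12 cell libraries together 23 members were called. The median log2 fold change of the members was 0.25, against 0.0069 over all genes tested.

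The largest rise was that of Slc7a11. It stood at 30.6, 27.5 and 45.0 CPM in controls and at 261, 227 and 240 CPM after LPS, 7.08-fold higher (log2 2.83, SE 0.17, edgeR adjusted p = 2.08e-06). The ranges lay far apart. Its partner Slc3a2 and Slc7a5 rose 1.19-fold and 1.18-fold (adjusted p = 0.00447 and 0.00493), calls that were lost without LPS library 3 (0.0589) and LPS library 2 (0.0604) respectively. The Slc7a5 call was also lost with all 12 cell libraries in the fit (0.122). Of the enzymes, Psat1 went from 270, 279 and 277 CPM to 433, 513 and 487 CPM, 1.74-fold higher (adjusted p = 6.06e-09). Mthfd2 rose 1.73-fold, Phgdh 1.41-fold and Asns 1.24-fold (adjusted p = 1.34e-08, 7.1e-06 and 0.00207). The Asns call was lost with all 12 cell libraries in the fit (0.253). Shmt2 was at 251 to 271 CPM in controls and at 244, 329 and 327 CPM after LPS, and was not called (adjusted p = 0.0601; 1.71e-05 without LPS library 1).

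Regulators split after LPS. Nupr1 rose from 25.1, 20.0 and 24.2 CPM to 49.3, 57.4 and 52.0 CPM, 2.29-fold (adjusted p = 9.67e-09). Ddit3 was higher by only 1.17-fold (adjusted p = 0.0321), its ranges overlapped, and the call was lost without control library 1 (0.0575), control library 2 (0.196), LPS library 2 (0.156) or LPS library 3 (0.0815), and with all 12 cell libraries in the fit (0.571). Trib3 fell from 115, 105 and 131 CPM to 40.4, 56.0 and 55.8 CPM, 2.31-fold (adjusted p = 3.59e-07; 0.0517 with all 12 cell libraries in the fit). Ddit4 fell from 13.2, 15.6 and 13.1 CPM to 4.47, 4.94 and 5.64 CPM, 2.79-fold (adjusted p = 1.97e-07). Neither gene had overlapping groups. Sesn2 fell 1.62-fold and Cebpg 1.29-fold (adjusted p = 2.22e-06 and 0.00307). Atf4 itself was at 215, 239 and 230 CPM, within the control range of 218 to 247 CPM apart from LPS library 1, with a log2 fold change of -0.02 (95% interval -0.16 to 0.11, adjusted p = 0.785).

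The sensors Atf6 and Eif2ak3 and the factor Xbp1 fell. Atf6 went from 270, 241 and 295 CPM to 136, 111 and 113 CPM, 2.24-fold lower, and Eif2ak3 from 53.6, 56.1 and 56.1 CPM to 31.6, 29.7 and 21.2 CPM, 2.0-fold lower (adjusted p = 5.05e-09 and 1.92e-06). Xbp1 fell 1.67-fold (299, 305 and 304 CPM against 165, 188 and 190; adjusted p = 1.55e-08). Ern1 differed by log2 0.05 (95% interval -0.15 to 0.25).

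In the ER arm 11 of 14 genes rose after LPS and none fell. Manf showed the largest change: it was at 27.9, 29.0 and 28.1 CPM in controls and at 61.5, 70.7 and 60.3 CPM after LPS, 2.26-fold higher (adjusted p = 1.81e-09). Creld2, another secreted ER factor, rose 1.71-fold, Hsp90b1 1.59-fold, Herpud1 1.55-fold and Hyou1 1.46-fold (adjusted p = 7.95e-07, 3.62e-08, 6.85e-07 and 5e-06). Smaller rises were measured in Pdia6 (1.40-fold), Pdia4 (1.34-fold), Pdia3 (1.27-fold), Sdf2l1 (1.25-fold), Calr (1.21-fold) and Hspa5 (1.19-fold), with adjusted p from 2.22e-06 to 0.00161. Canx, Dnajb9 and Dnajc3, which all rose after TGF-β, were not called after LPS (log2 0.11, 0.14 and 0.08).

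**Figure D4:**
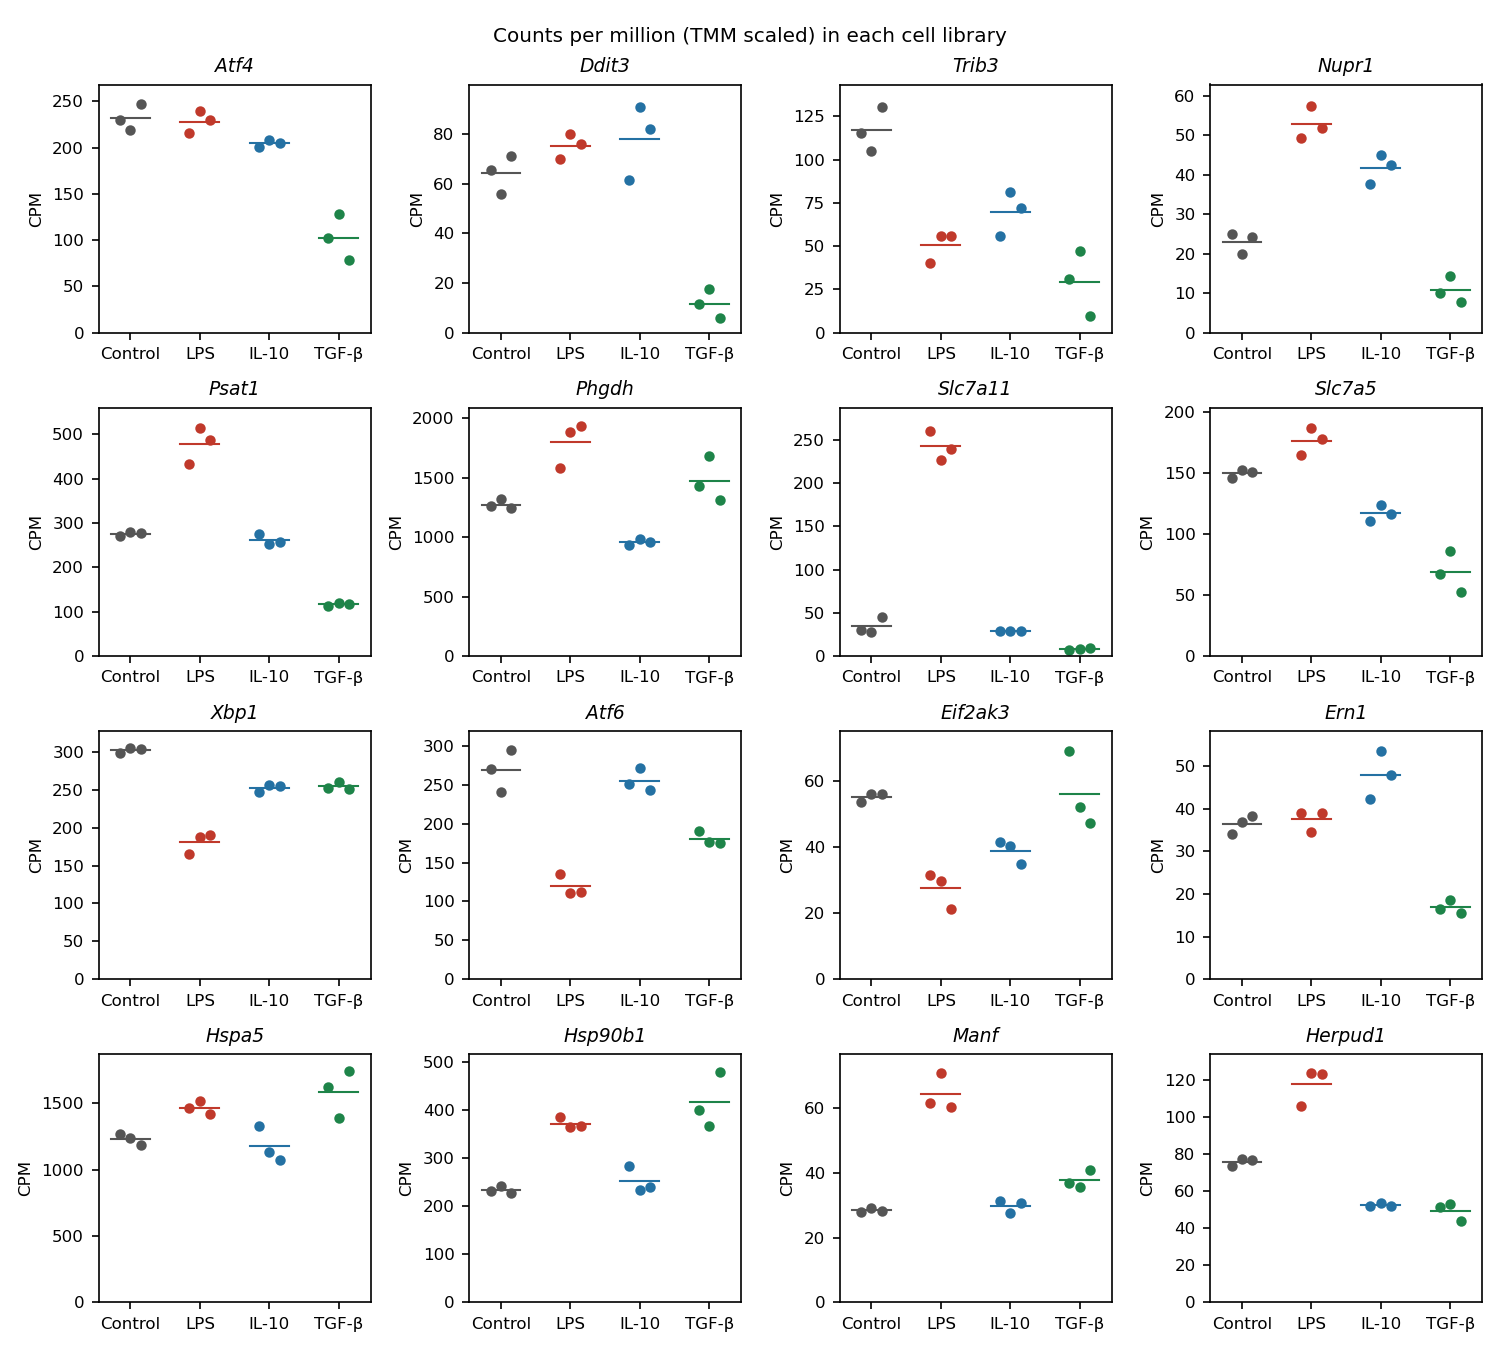
Levels of 16 members in each of the 12 cell libraries (y axis, TMM-scaled CPM from 0; x axis, condition; points, libraries; bars, group means). Slc7a11 lies at 227 to 261 CPM after LPS and at 7.07 to 8.71 CPM after TGF-β, and the TGF-β points of Ddit3 and Trib3 are spread between their 3 libraries.

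The further pathway genes were mixed after LPS. Of the 28 ATF4 targets 8 rose and 12 fell (median 0.03). The stress cytokine gene Gdf15 and Cth, which makes cysteine from cystathionine, rose 3.45-fold and 3.44-fold (adjusted p = 3.58e-12 and 1.2e-10), while Ppp1r15a fell 3.23-fold and the amino acid transporter Slc38a2 2.48-fold (adjusted p = 1.47e-12 and 3.59e-10). Of the eIF2 genes 8 of 14 rose and 3 fell, with Eif2b1 1.83-fold higher and Eif2ak4 1.88-fold lower. In ER folding and translocation 20 of 44 rose and 8 fell (median 0.17): Serp1, which stabilises proteins at the translocon, rose 4.51-fold, and the BiP exchange factor Sil1 fell 2.07-fold (adjusted p = 2.3e-15 and 3.51e-09). In ER-associated degradation 6 of 21 rose and 8 fell, among them Edem1, a mannosidase-like lectin, 2.35-fold lower (adjusted p = 8.29e-12). Of the ATF6 and CREB3 relatives and death genes 2 of 15 rose and 5 fell, and of heat shock genes 10 of 20 rose and 2 fell (Hsp90aa1 1.83-fold higher, Hspa1a 2.71-fold lower).

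IL-10 moved fewer members and by less. After IL-10, 5 members were higher and 11 lower, where 12.3% of 11790 genes were higher, 10.9% lower and 23.2% either, and the median log2 fold change was -0.08 against -0.0036 over all genes tested. In the fit that took all 12 cell libraries together, 4 were higher and 5 lower. Of the integrated stress response arm 1 of 16 rose and 8 fell, and of the ER arm 3 of 14 rose and 1 fell.

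Nupr1 was the 1 regulator that rose, to 37.6, 45.0 and 42.6 CPM from 25.1, 20.0 and 24.2 CPM (1.81-fold, adjusted p = 1.29e-05). Trib3 fell to 56.0, 81.4 and 72.1 CPM from 115, 105 and 131 CPM (1.68-fold, adjusted p = 0.00217), and Sesn2 fell 1.29-fold (adjusted p = 0.00176). Neither group of libraries overlapped the controls. Shmt2 and Phgdh fell 1.46-fold and 1.33-fold (adjusted p = 1.23e-06 and 7.09e-06), and Slc7a5 fell 1.28-fold (adjusted p = 0.000457). In the fit of all 12 cell libraries the calls of Trib3, Sesn2 and Slc7a5 were lost (adjusted p = 0.311, 0.0684 and 0.0596), and those of Shmt2 and Phgdh were kept. Asns, Slc3a2 and Atf4 were lower by 1.13-fold to 1.18-fold with adjusted p of 0.0194, 0.0444 and 0.0371, and each lost its call when single libraries were left out, with adjusted p up to 0.145, 0.171 and 0.197. Ddit3 was not called (log2 0.28, adjusted p = 0.199; 0.00244 without IL-10 library 1).

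Ern1 rose to 42.2, 53.6 and 47.9 CPM from 33.99, 36.8 and 38.3 CPM (1.32-fold, adjusted p = 0.00656), while Eif2ak3 fell 1.42-fold and Xbp1 1.20-fold (adjusted p = 0.000363 and 0.00168). Pdia4 rose the most in the ER arm after Dnajb9: it was at 267, 228 and 244 CPM against 153, 164 and 158 CPM in controls (1.55-fold, adjusted p = 1.02e-06). Dnajb9 was at 8.06, 8.47 and 10.7 CPM against 5.56, 5.69 and 6.02 CPM (1.57-fold, adjusted p = 0.0101; 0.0576 without IL-10 library 3). Both genes had all IL-10 libraries above all controls. Dnajc3 rose 1.19-fold (adjusted p = 0.0357, up to 0.122 with single libraries left out), and Herpud1 fell 1.45-fold (52.1, 53.4 and 51.8 CPM against 73.3, 77.6 and 77.0; adjusted p = 2.68e-05).

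Of the further ATF4 targets 2 of 28 rose and 10 fell after IL-10 (median -0.14), with Gdf15 1.62-fold higher and Slc38a2 1.57-fold lower. The counts were 3 of 14 higher and 1 lower for eIF2 genes, and 12 of 44 higher and 2 lower for ER folding and translocation, where Serp1 rose 1.32-fold and Ero1l fell 1.41-fold. They were 2 of 21 and 1 for ER-associated degradation, 2 of 15 and 5 for ATF6 and CREB3 relatives and death genes, where Map3k5 (ASK1) fell 4.0-fold (adjusted p = 6.3e-05), and 2 of 20 and 1 for heat shock genes.

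The 3 cell comparisons share their control libraries, so their values are set side by side and the treatments were also tested directly against each other. Sesn2 and Xbp1 were lower after all 3 treatments: Sesn2 by log2 -0.69 after LPS, -0.37 after IL-10 and -1.30 after TGF-β, and Xbp1 by -0.74, -0.26 and -0.25. Pdia4 was higher after all 3 (0.43, 0.64 and 0.53). In all, 9 members, all of the ER arm, were higher after both LPS and TGF-β. A further 10 were higher after LPS and lower after TGF-β, namely Ddit3, Nupr1, Asns, Psat1, Mthfd2, Slc7a11, Slc3a2, Slc7a5, Hyou1 and Herpud1. The share of all genes with such joint calls was not computed, so these counts only describe the members.

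Between LPS and TGF-β cells, 18 members were higher after LPS and 9 lower (29.3% and 27.8% of 12148 genes, 57.1% in either direction). Slc7a11 differed 31.0-fold (log2 4.95, SE 0.16, edgeR adjusted p = 8.31e-13), Ddit3 6.50-fold, Nupr1 4.97-fold, Mthfd2 4.20-fold and Psat1 4.11-fold. In the integrated stress response arm 13 of 16 were higher after LPS and 2 lower, Cebpg by log2 -0.64 and Ddit4 by -1.42. The ER arm divided: Herpud1, Hyou1, Manf and Creld2 were higher after LPS (2.38-, 1.73-, 1.70- and 1.37-fold) and Calr, Canx, Dnajc3 and Pdia3 lower (1.18-, 1.34-, 1.44- and 1.38-fold). For Hspa5 this contrast gave no call. All of these 27 calls were kept under each alternative that tested them; Chac1 was left out by the filter at a mean of 50 counts.

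Between LPS and IL-10 cells, 17 members were higher after LPS and 8 lower (27% and 26.3% of genes, 53.3% in either direction), with all 4 sensors lower after LPS, from log2 -0.35 for Ern1 to -1.09 for Atf6. Slc7a11 differed 8.34-fold and Herpud1 2.24-fold. Between TGF-β and IL-10 cells, 12 were higher after TGF-β and 14 lower (18.3% and 20% of genes, 38.3% in either direction). Ern1 was 2.85-fold lower after TGF-β than after IL-10 (adjusted p = 1.71e-09), Eif2ak3 1.44-fold higher (adjusted p = 0.00856), and none of the ER arm was lower, with 9 of 14 higher.

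In EVs the members were measured with less depth and more spread. Of the 34 genes, 24 had counts in all 12 EV libraries and 10 had none in at least 1 library. Per length, the 4 most abundant members of control EVs were those of control cells: Phgdh at 1658 ± 527 (SD, n = 3), Calr at 862 ± 397, Hspa5 at 681 ± 223 and Pdia3 at 539 ± 226. Between control EVs and control cells, 0 members were higher and 3 lower in EVs (1.23% and 9.43% of 11427 genes, 10.7% in either direction). Slc7a5 was lower in EVs (log2 -1.49, adjusted p = 0.0436). Chac1 and Dnajb9 had no count in any control EV library, at least 4.68-fold and 15.6-fold below control cells when 3 counts per library are set as the floor. These calls were lost when any control cell library was left out.

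LPS EVs were compared with control EVs with 33 members tested. In this comparison 3 members were higher and 1 lower, where 13.9% of 12216 genes were higher, 0.237% lower and 14.2% either, and the median log2 fold change was -0.35 for members and 0.33 for all genes. Under scaling by library totals alone, the median over all genes was 0.54. Ddit3 was at 106, 50.8 and 45.6 CPM in control EVs and at 543, 291 and 394 CPM in LPS EVs (6.18-fold, edgeR adjusted p = 0.025). Nupr1 went from 41.9, 2.83 and 31.5 CPM to 581, 249 and 302 CPM (15.1-fold, adjusted p = 0.0342). Both genes were above all control EVs in all 3 LPS libraries. Of all 13290 genes, 32.9% did not overlap between LPS and control EVs, and 21 of the 34 members overlapped. In CPM of the library total, Ddit3 (576, 398 and 480) and Nupr1 (616, 341.5 and 368) were above the mean of the genes silent in cells there (9.97, 43.0 and 20.6). Comparisons with that mean, here and for Dnajb9, were not scaled by exon length. Sesn2 was lower, at 9.28, 24.4 and 36.7 CPM against 66.5, 151 and 283 CPM (7.0-fold, adjusted p = 0.0433). Dnajb9 had 0 counts in the control EVs and 34, 13 and 38 in the LPS EVs, at least 16.1-fold higher against the floor of 3 counts per library, but its 7.78, 4.31 and 6.05 CPM of the library total lay below the mean of the genes silent in cells in each library.

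None of these 4 calls remained when any 1 LPS EV library was left out, or when all 12 EV libraries were fitted together, and 2 were made without control EV library 3. DESeq2 called 7 members and limma-voom 4, of which 3 were among these 4; Nupr1 was not called by limma-voom (adjusted p = 0.0635). The 8 listed markers of neurons, other glia, endothelium and lymphocytes summed to 87.2 to 386 CPM in the LPS EVs, with 7 or 8 of 8 above 3 counts, and to 0.648 to 105.8 CPM in the other EVs, with 0 to 4 of 8. Rbfox3 and Pecam1, which mark neurons and endothelium, were at 0 in control EVs and control cells and averaged 33.2 and 19.9 CPM in LPS EVs. Snap25, Syt1, Slc1a3 and Ms4a1 also averaged higher in LPS EVs than in control EVs. Mbp and Aldh1l1, which mark oligodendrocytes and astrocytes, averaged lower (2.78 against 20.2 CPM and 8.92 against 16.7 CPM). The part of these signals in the results for LPS EVs was not tested.

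The effect of LPS on EVs was also tested against its effect on cells, as an interaction. By this test 2 members had a more positive log2 fold change in EVs than in cells and 8 a more negative one (14.1% and 2.04% of 13263 genes, 16.1% in either direction). Psat1, 1.74-fold higher in LPS cells, was at 171, 135 and 179 CPM in LPS EVs and at 298, 279 and 360 CPM in control EVs, a difference between the effects of -1.88 (SE 0.28, adjusted p = 0.00167). For Hspa5 the LPS EVs held 387, 388 and 597 CPM against 1136, 795 and 1092 CPM in controls (difference -1.53, adjusted p = 0.00872). In both genes LPS EVs lay below control EVs while LPS cells lay above control cells. The summed level of the microglia and macrophage markers was also lower in LPS EVs (2863 to 4305 CPM) than in control EVs (4641 to 6662 CPM), and its part in these differences was not tested. Psat1 was the 1 call that limma-voom shared. The number of calls, 10, fell to 4 without LPS cell library 1, to 5 without control cell library 1 or 2 or LPS EV library 2, and to 6 without LPS cell library 2, and was 15 without control EV library 1.

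After IL-10 and TGF-β no member was called in EVs by edgeR (0 of 31 tested in each, 0% of 8992 and 9093 genes). At an unadjusted p under 0.05 there were 0 members after IL-10 and 3 after TGF-β, and DESeq2 and limma-voom also called 0 in both. The share of all genes at that unadjusted p was not computed. Phgdh and Calr, described next, were among these 3. Phgdh stood at 4678, 3631 and 4478 CPM in TGF-β EVs and at 897, 2279 and 1433 CPM in control EVs (log2 1.47, edgeR unadjusted p = 0.0167, adjusted p = 0.999), without overlap. Between TGF-β and control EVs, 12.0% of all 13290 genes did not overlap. Calr was at 358, 386 and 169 CPM against 1102, 598 and 863 CPM (log2 -1.51, unadjusted p = 0.0159, adjusted p = 0.999), although it rose in TGF-β cells. The interaction with compartment gave 0 calls of 34 for both treatments. For IL-10, 0.109% of genes were more positive in EVs, 0.176% more negative and 0.285% either, and for TGF-β 0.134%, 0.176% and 0.31%. At an unadjusted edgeR p under 0.05 there were 4 and 12 members, and DESeq2 called 1 and 8 and limma-voom 0. The shares of all genes at that unadjusted p and by DESeq2 were not computed, so these counts only describe the members.

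**Figure D5:**
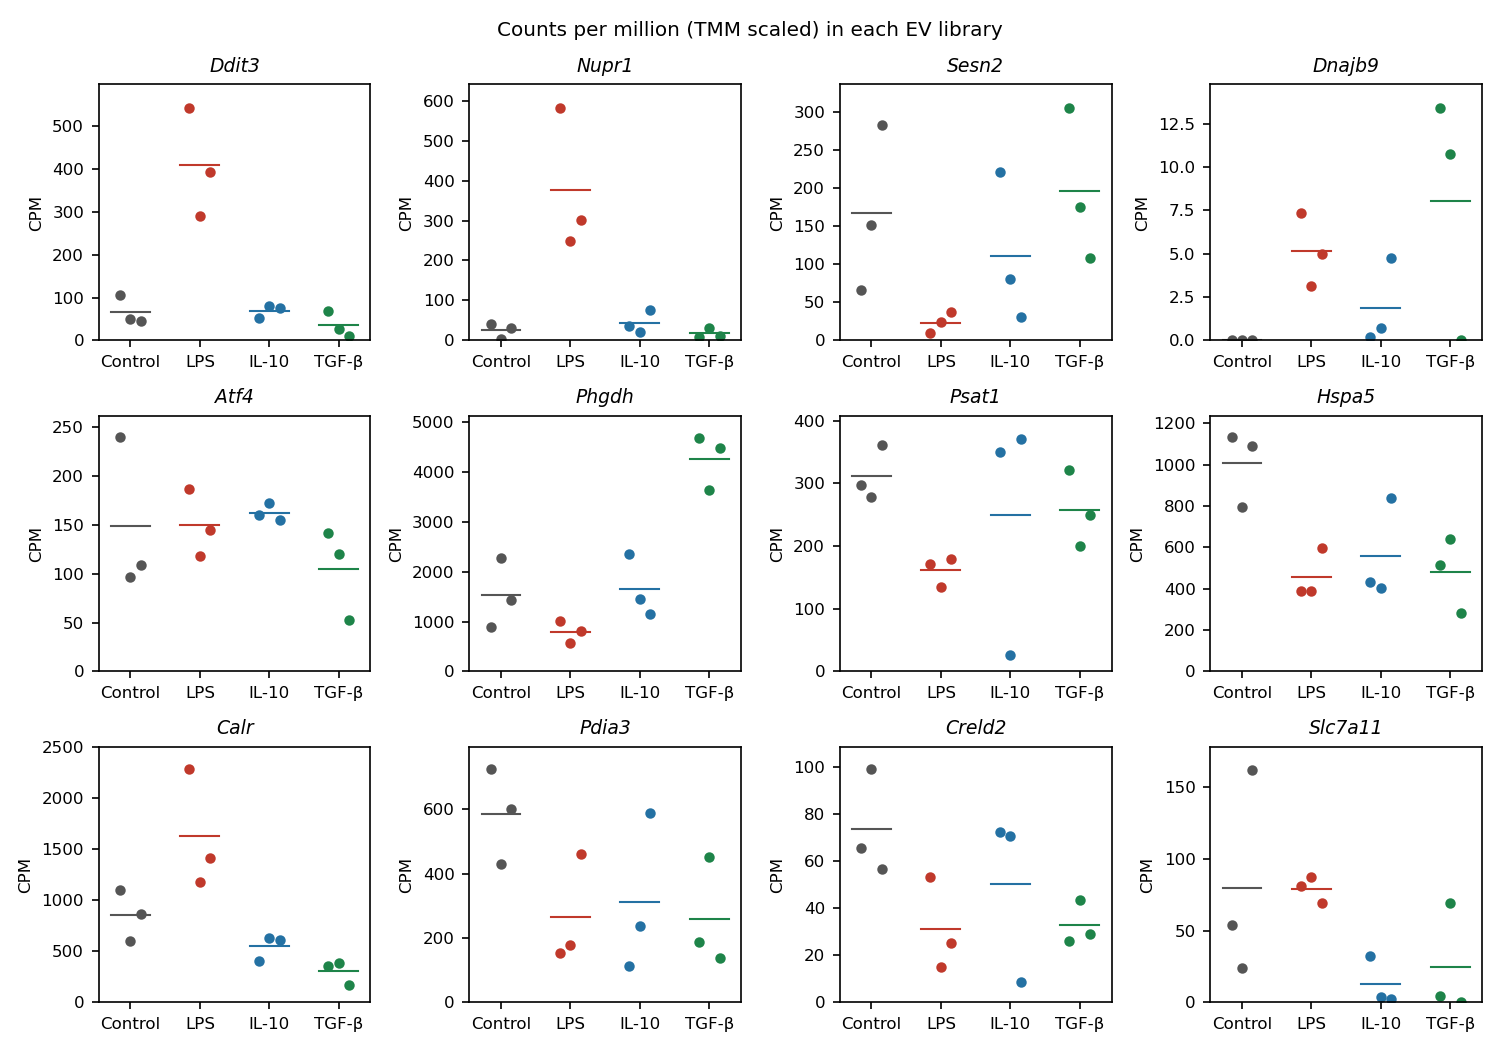
Levels of 12 members in each of the 12 EV libraries (y axis, TMM-scaled CPM from 0; x axis, condition of the cultures; points, libraries; bars, group means). Ddit3 and Nupr1 are highest in the 3 LPS libraries, and Phgdh in the 3 TGF-β libraries. Dnajb9 and Calr also lie above all control EVs in the 3 LPS libraries, and Sesn2, Psat1, Hspa5 and Creld2 lie below them. Of all 13290 genes, 32.9% do not overlap between LPS and control EVs. Atf4, Pdia3 and Slc7a11 overlap between each treatment and control.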

How the data were processed

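Counts per gene of BV2 cells and EVs were deposited by the authors as 6 tables, each with 3 treated and 3 control libraries, and control columns were identical between the tables of a compartment. Per the labels' protocols, full-length cDNA was made from total RNA (SMART-Seq v4), libraries were tagged by Nextera XT, amplified over 18 PCR cycles and read as paired 150-base reads. The submitters' processing notes name DESeq2. The aligner was not given in the sources used here, nor were the annotation or build. Column numbers appear in no label, so libraries were assigned to groups only, and 0 columns were left unmapped.

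Members and pathway lists were chosen with earlier results of these data known. All 34 members are accounted for, and of each pathway list, examples are taken from the 2 called genes with the lowest adjusted p in each direction. A gene was called at a Benjamini-Hochberg adjusted p under 0.05 over all genes tested with the quasi-likelihood test of edgeR 4.0.16 in R 4.3.3, with robust dispersions, TMM scaling and the filterByExpr filter on low counts. Comparisons with controls used 6 libraries, direct and interaction contrasts 12. Alternatives were RLE scaling, library totals, DESeq2 1.42.0, limma-voom with quality weights (limma 3.58.1), other count filters, all 12 libraries of a compartment, and leaving out each library. Exon lengths came from GENCODE M21, which may differ from the annotation counted. The procedure was tested on simulated data, in which all genes shared 1 dispersion estimated from the control libraries of the compartment. It recovered the changes put into cell libraries and none of those put into EV libraries. In the real LPS EVs 14.2% of genes were called, so the simulated EV setting differs from the data and does not measure the power there. A member not called in EVs may still differ. Counts from PCR-amplified reads without molecular identifiers are not independent molecules, and floors of 3 counts cover counting error only. No protein sequence was used here.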

Additional observations from a re-analysis of the deposited data

Results flagged for a closer look

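In 10 members the effect of LPS differed between EVs and cells by the test of the interaction (edgeR). The log2 fold change was more positive in EVs for Ddit3 (difference 2.22) and Dnajb9. For Dnajb9 the fitted difference of 9.51 depends on the prior count, since all control EV libraries were at 0. It was more negative in EVs for the enzymes Asns (-1.39), Phgdh (-1.58) and Psat1 (-1.88), for the transporter subunit Slc7a11 (-2.96), and for the ER genes Hspa5 (-1.53), Dnajc3 (-1.90), Pdia6 (-1.44) and Creld2 (-2.15). Every one of these 8 genes had a positive log2 fold change in LPS cells, where Dnajc3 was not called. In LPS EVs the members had a median log2 fold change of -0.35 while the median over all genes was 0.33. With limma-voom 1 of the 10 calls was left, that of Psat1, and between 4 and 15 members were called when single libraries were left out.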

How the results depend on the processing

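In cells, 22 of 27 calls after LPS, 8 of 16 after IL-10, 24 of 30 after TGF-β, 19 of 25 between LPS and IL-10, 27 of 27 between LPS and TGF-β and 24 of 26 between TGF-β and IL-10 were kept under every alternative that tested them. Scaling by library totals was not among the alternatives in cells. Chac1, called in the comparisons with TGF-β, was left out by the filter at a mean of 50 counts. With all 12 cell libraries in the fit, IL-10 gave 9 calls. Leaving out 1 library gave 25 to 28 calls after LPS, 12 to 16 after IL-10 and 24 to 30 after TGF-β. No call changed direction. Signs turned only in uncalled genes with 1 library left out. Their log2 ranges were -0.068 to 0.017 for Atf4 and -0.45 to 0.088 for Chac1 after LPS, -0.38 to 0.00077 for Slc7a11 and -0.10 to 0.0056 for Calr after IL-10, -0.14 to 0.046 for Ddit4 and -0.14 to 0.14 for Eif2ak3 after TGF-β, -0.20 to 0.067 for Ddit3 between LPS and IL-10, and -0.0099 to 0.028 for Xbp1 and -0.29 to 0.013 for Dnajb9 between TGF-β and IL-10.

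EV calls were less stable. In cells and EVs alike, the share of all genes called was computed for the main fits only, not for the alternatives. LPS EVs gave 7 calls with DESeq2, 0 with a mean of at least 50 counts, 0 with all 12 EV libraries and 0 to 5 with 1 library left out. The LPS interaction gave 1 with limma-voom and 4 to 15 with 1 library left out. The IL-10 interaction gave 1 with DESeq2 and 0 to 1 with 1 library left out, and the TGF-β interaction 8 and 0 to 5. Control EVs against control cells gave 9 with DESeq2, 1 with a mean of at least 50 counts and 0 to 13 with 1 library left out. The causes were not tested. The fit of all 12 libraries of a compartment was not run for control EVs against control cells, which spans both compartments. No paired analysis was possible because the column numbers appear in no label. At EV depths a count of 0 allows up to 0.167 to 0.994 CPM, and values near that are not detectable.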
